A study of Mus musculus with 12 samples.

Results

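The 9 chemokine receptor genes described here, Cxcr4, Ccr7, Cxcr3, Cxcr6, Ccr1, Ccr2, Ccr6, Ccr8 and Ccr9, were taken from a list of receptors of marrow and tissue homing. All 9 of the 9 listed genes were present among the 14259 genes of the count table and all 9 passed the filter on low counts, which kept 13782 genes. The data are bulk RNA sequencing of regulatory T (Treg) cells sorted from the bone marrow of C57BL/6 mice at day 14. The 12 libraries fall into 4 groups, each with 3. Those called No Tumor came from mice given WT Treg cells and WT Foxp3-negative T cells but no leukemia. The WT Treg, ST2-KO Treg and Tbet-KO Treg libraries came from marrow that also held MLL-AF9 leukemic cells, a retrovirally induced myeloid leukemia that carries eGFP, after transfer of WT, ST2-KO or Tbet-KO Treg cells with the same WT T cells. All recipients were lethally irradiated and received T cell-depleted marrow. ST2, encoded by Il1rl1, is the receptor of the alarmin IL-33, and Tbet, encoded by Tbx21, is the transcription factor of type 1 immunity; both knockouts were of the whole animal and not limited to Treg cells by a Cre driver. Sorted cells were CD4+CD25+ and either eGFP+, from a Foxp3-eGFP reporter, in the WT and ST2-KO groups, or CD127- in the Tbet-KO group, so that gate and Tbet genotype cannot be told apart. The labels give neither the age of the mice nor whether each library was a separate mouse, so p-values measure only the spread between these libraries, which may be technical. For the MLL-AF9 transfer model the study's reporting summary gives an age range, without naming the sequenced mice.

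Chemokine receptors are G protein-coupled receptors of the Gi class. Binding of a chemokine activates Gi proteins and the DOCK2-RAC pathway that moves the cell towards the source, while receptor kinases, arrestins and RGS proteins end the signal. CXCR4 and its ligand CXCL12 hold leukocytes, Treg cells among them, in the bone marrow, CCR7 brings cells to lymph nodes, and the other receptors described here direct cells to inflamed or epithelial tissue. Few of these receptors are specific to T cells: CXCR4 is made by most hematopoietic cells, CCR2 by monocytes, CCR1 by neutrophils and monocytes, and CCR9 by plasmacytoid dendritic cells.

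Libraries held 13272943 to 18042521 counts, and levels are given as CPM, counts relative to the library total after TMM scaling. The Treg marker Foxp3 was detected in every library, at 67.8 CPM in No Tumor, 159 CPM in WT Treg, 108 CPM in ST2-KO and 112 CPM in Tbet-KO libraries on average. Defining markers of other cells were also detected, although the study required a high purity of the sort. S100a8, a granulocyte alarmin, lay above Foxp3 in all 4 groups, with averages of 2065, 3746, 1909 and 2503 CPM in the same order. Cd79a, a subunit of the B cell receptor complex, averaged 261, 85.4, 179 and 5.82 CPM, which was above Foxp3 in No Tumor and ST2-KO libraries and below it in the others. Summed over 12 T cell genes the libraries held 615 to 649 CPM in No Tumor, 1596 to 1637 in WT Treg, 817 to 845 in ST2-KO and 1741 to 1779 in Tbet-KO. Summed over 15 B lineage genes they held 4330 to 4389, 1220 to 1234, 3015 to 3105 and 115 to 119 CPM in the same order. The 13 granulocyte genes summed to 14278 to 14552, 19052 to 19358, 12246 to 12823 and 15407 to 15582 CPM, and the 14 monocyte and macrophage genes to 2500 to 2524, 3640 to 3741, 2824 to 2918 and 3336 to 3435 CPM. The 8 genes of stem and progenitor cells and MLL fusion targets summed to 66.1 to 69.5, 208 to 222, 184 to 193 and 376 to 397 CPM in the same order. No marker gene of these lists was at 0 in all libraries. In bulk libraries of this kind, fewer cells of a type and less RNA per cell cannot be told apart, and the part that other cells had in each receptor level was not tested. Neither knockout label was marked by loss of its transcript: Il1rl1 averaged 129 ± 6.51 CPM in WT Treg and 89.9 ± 3.07 CPM in ST2-KO libraries, and Tbx21 averaged 38.7 ± 2.78 and 14.7 ± 1.28 CPM in WT Treg and Tbet-KO libraries (SD, n = 3). In No Tumor libraries Il1rl1 averaged 76.8 ± 2.10 CPM and Tbx21 15.4 ± 2.81 CPM (SD, n = 3). Il1rl1 was called higher in ST2-KO than in No Tumor (log2 fold change 0.23, edgeR adjusted p = 0.000198). The Tbx21 difference between Tbet-KO and No Tumor did not pass (edgeR adjusted p = 0.594). Per 1000 counts of the 12 T cell genes, Il1rl1 averaged 122 in No Tumor, 79.8 in WT Treg, 108 in ST2-KO and 145 in Tbet-KO. On that scale Tbx21 averaged 24.4, 23.9, 24.0 and 8.30 in the same order, lowest in Tbet-KO. What the Il1rl1 and Tbx21 counts of the knockout libraries stem from was not tested, so these values do not check the labels. The groups are called by their labels throughout. In the headers of the count table the WT Treg and ST2-KO columns also carry the same sequencer sample numbers, although their counts differ.

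**Figure D1:**
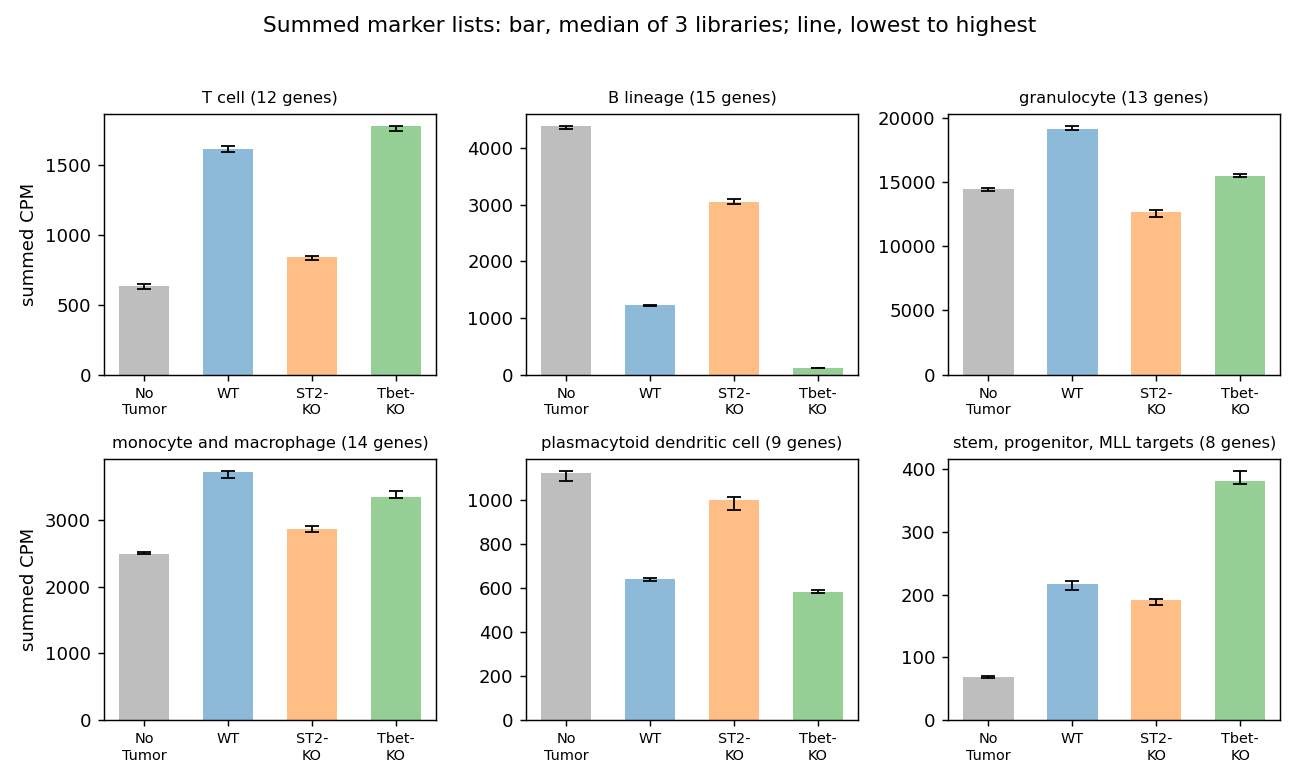
Summed TMM-scaled CPM of 6 marker lists (y axis, linear from 0) in the 4 groups (x axis). Bars are the median of 3 libraries and lines run from the lowest to the highest; the T cell sum was 615 to 649 CPM in No Tumor and 1596 to 1637 CPM in WT Treg, while the B lineage sum was 4330 to 4389 and 1220 to 1234 CPM.

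Of the 9 genes, 5 lie on mouse chromosome 9 (GRCm38, GENCODE M21). Ccr9, Cxcr6, Ccr1 and Ccr2 sit within 435119 bases, from 123678439 to 124113557, and Ccr8 lies apart at 120092114 to 120094906. Cxcr6 (123806475 to 123811760, plus strand) is nested in Fyco1, an autophagy adaptor gene on the minus strand, but none of its 1931 exon bases fell in a Fyco1 exon. The GENCODE M21 gene span of Ccr9 overlaps Lztfl1 and Slc6a20a on the opposite strand, but reads were counted on another annotation, UCSC refGene. The RefSeq promoter window of Ccr9 begins at 123766961, past the ends of both partners. Overlap of Ccr9 exons with their exons was not tested, and the strand setting is not stated. Whether reads of these partners entered the Ccr9 counts was therefore not tested. Cxcr4 lies on chromosome 1 (128588199 to 128592293, minus strand), Ccr6 on chromosome 17 (8236043 to 8257141, plus), Ccr7 on chromosome 11 (99144196 to 99155077, minus) and Cxcr3 on chromosome X (101731535 to 101734269, minus). Most of these receptors are coded by a single exon: Ccr1, Ccr2, Ccr6, Ccr8 and Cxcr6 have 1 coding exon, Ccr9, Cxcr3 and Cxcr4 have 2 and Ccr7 has 3.

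Promoter windows, from 250 bases before to 50 bases after the RefSeq start (GRCm38.p6), were matched for 8 of the 9 receptors, all but Ccr7. The windows of Cxcr4, Cxcr3, Cxcr6 and Ccr8 are shown because they stand for the patterns found: a lower level in leukemic marrow (Cxcr4), the lowest level in Tbet-KO (Cxcr3), a high and a low pair of groups (Cxcr6) and a tissue receptor with the same pairs (Ccr8). Both strands were searched for GGTGTGA for T-box factors such as Tbet, CCACCC for KLF factors and AGATAA for zinc finger factors of the Gata family, and matches are in capitals.
Cxcr4 (chr1:128592250-128592549, minus strand): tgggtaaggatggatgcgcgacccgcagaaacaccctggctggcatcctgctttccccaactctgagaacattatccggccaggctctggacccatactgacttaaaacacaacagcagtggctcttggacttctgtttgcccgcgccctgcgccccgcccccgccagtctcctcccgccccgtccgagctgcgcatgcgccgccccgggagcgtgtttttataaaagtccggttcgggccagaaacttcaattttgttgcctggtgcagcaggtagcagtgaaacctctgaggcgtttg
Cxcr3 (chrX:101734098-101734397, minus strand): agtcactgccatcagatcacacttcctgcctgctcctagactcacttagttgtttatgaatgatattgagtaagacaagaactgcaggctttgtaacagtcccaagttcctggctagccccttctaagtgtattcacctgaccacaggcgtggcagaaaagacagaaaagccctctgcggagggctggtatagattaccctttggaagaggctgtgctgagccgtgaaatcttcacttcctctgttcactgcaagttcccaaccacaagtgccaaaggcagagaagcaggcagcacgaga
Cxcr6 (chr9:123806227-123806526, plus strand): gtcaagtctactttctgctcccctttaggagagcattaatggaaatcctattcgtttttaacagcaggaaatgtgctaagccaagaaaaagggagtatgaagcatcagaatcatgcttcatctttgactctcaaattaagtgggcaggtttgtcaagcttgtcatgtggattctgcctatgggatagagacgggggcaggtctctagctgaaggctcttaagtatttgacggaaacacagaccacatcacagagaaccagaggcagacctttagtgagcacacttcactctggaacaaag
Ccr8 (chr9:120091883-120092182, plus strand): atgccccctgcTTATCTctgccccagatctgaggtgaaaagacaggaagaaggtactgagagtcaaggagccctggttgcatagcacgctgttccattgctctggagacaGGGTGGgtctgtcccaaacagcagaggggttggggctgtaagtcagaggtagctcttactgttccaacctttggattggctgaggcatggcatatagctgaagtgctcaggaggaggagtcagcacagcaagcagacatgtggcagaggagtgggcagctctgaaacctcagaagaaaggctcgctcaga
The capitals in the Ccr8 window are a Gata-type match, read as TTATCT on the strand shown, and a KLF-type match, read as GGGTGG, which do not overlap; the other windows shown held none of the letters. Of the windows not shown, those of Ccr2 and of Ccr6 at chr17:8242276-8242575 held a Gata-type match, and that of Ccr9 a KLF-type match. The window of Ccr1 and that of Ccr6 at chr17:8235793-8236092 held none. Among 32851 promoter windows of the same length, 11.2% held the Gata letters, 31.5% the KLF letters and 3.98% the T-box letters. None of the receptor windows held the T-box letters, which says only that these letters are absent from these windows.

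Corrected for length, Cxcr4 had the highest level of the 9 receptors in every group. In WT Treg libraries the deposited FPKM values, taken out of log2, averaged 133 for Cxcr4, 86.5 for Ccr2, 54.9 for Cxcr3, 51.1 for Cxcr6, 23.8 for Ccr1, 15.1 for Ccr8, 11.2 for Ccr7, 7.90 for Ccr6 and 5.35 for Ccr9. In No Tumor libraries they averaged 242 for Cxcr4, 38.1 for Ccr2, 22.2 for Cxcr3 and 18.7 for Cxcr6, so that the distance between Cxcr4 and the inflammatory receptors was wider there. The directions that follow hold for TMM scaling. Relative to T cell genes, the rises of 7 receptors from No Tumor to WT Treg turned or were not called, as set out after the counts.

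Cxcr4, the marrow retention receptor, was lower in all 3 leukemic groups than in No Tumor. The 3 libraries held 450, 429 and 435 CPM in No Tumor, 241, 240 and 241 in WT Treg, 344, 351 and 320 in ST2-KO and 208, 200 and 210 in Tbet-KO. No 2 groups overlapped, and the order No Tumor, ST2-KO, WT Treg, Tbet-KO separated at every step. Cxcr4 fell by 0.87 on the log2 scale from No Tumor to WT Treg (SE 0.03, edgeR adjusted p = 1.18e-38, from the quasi-likelihood test and the Benjamini-Hochberg method that all adjusted p-values here share), to 54.9% of the No Tumor level. It was higher in ST2-KO than in WT Treg libraries by 0.49 (SE 0.03, edgeR adjusted p = 1.91e-22) and lower in Tbet-KO than in WT Treg by 0.22 (log2 fold change -0.22, edgeR adjusted p = 7.09e-08). The group order of the B lineage sum was the same as that of Cxcr4, with 4330 to 4389 CPM in No Tumor and 115 to 119 CPM in Tbet-KO libraries. B cell precursors also express Cxcr4, and their part in its level was not tested.

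Ccr7, the lymph node homing receptor for CCL19 and CCL21, had its lowest level in the Tbet-KO libraries. It was at 26.1, 27.9 and 28.4 CPM in No Tumor, 22.2, 20.6 and 23.1 in WT Treg, 26.6, 27.7 and 24.6 in ST2-KO and 7.19, 8.85 and 11.2 in Tbet-KO. All Tbet-KO libraries lay below every other library. The fall from WT Treg to Tbet-KO was to 41.4% (log2 fold change -1.28, SE 0.13, edgeR adjusted p = 1.32e-14). A smaller fall from No Tumor to WT Treg passed the test (log2 fold change -0.32, edgeR adjusted p = 0.0115) but not when WT Treg replicate 2 was left out. ST2-KO and WT Treg libraries did not overlap, yet the difference of 0.26 (95% interval 0.04 to 0.49) did not pass (edgeR adjusted p = 0.0557). Relative to T cell genes Ccr7 was called higher in ST2-KO than in WT Treg (log2 fold change 1.22, edgeR adjusted p = 8.2e-19), on a scale that shifts the median of all genes by 0.951 in that comparison. The B lineage sum was likewise lowest in Tbet-KO (115 to 119 CPM, against 1220 to 1234 CPM in WT Treg), and its part in Ccr7, which B cells also express, was not tested.

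**Figure D2:**
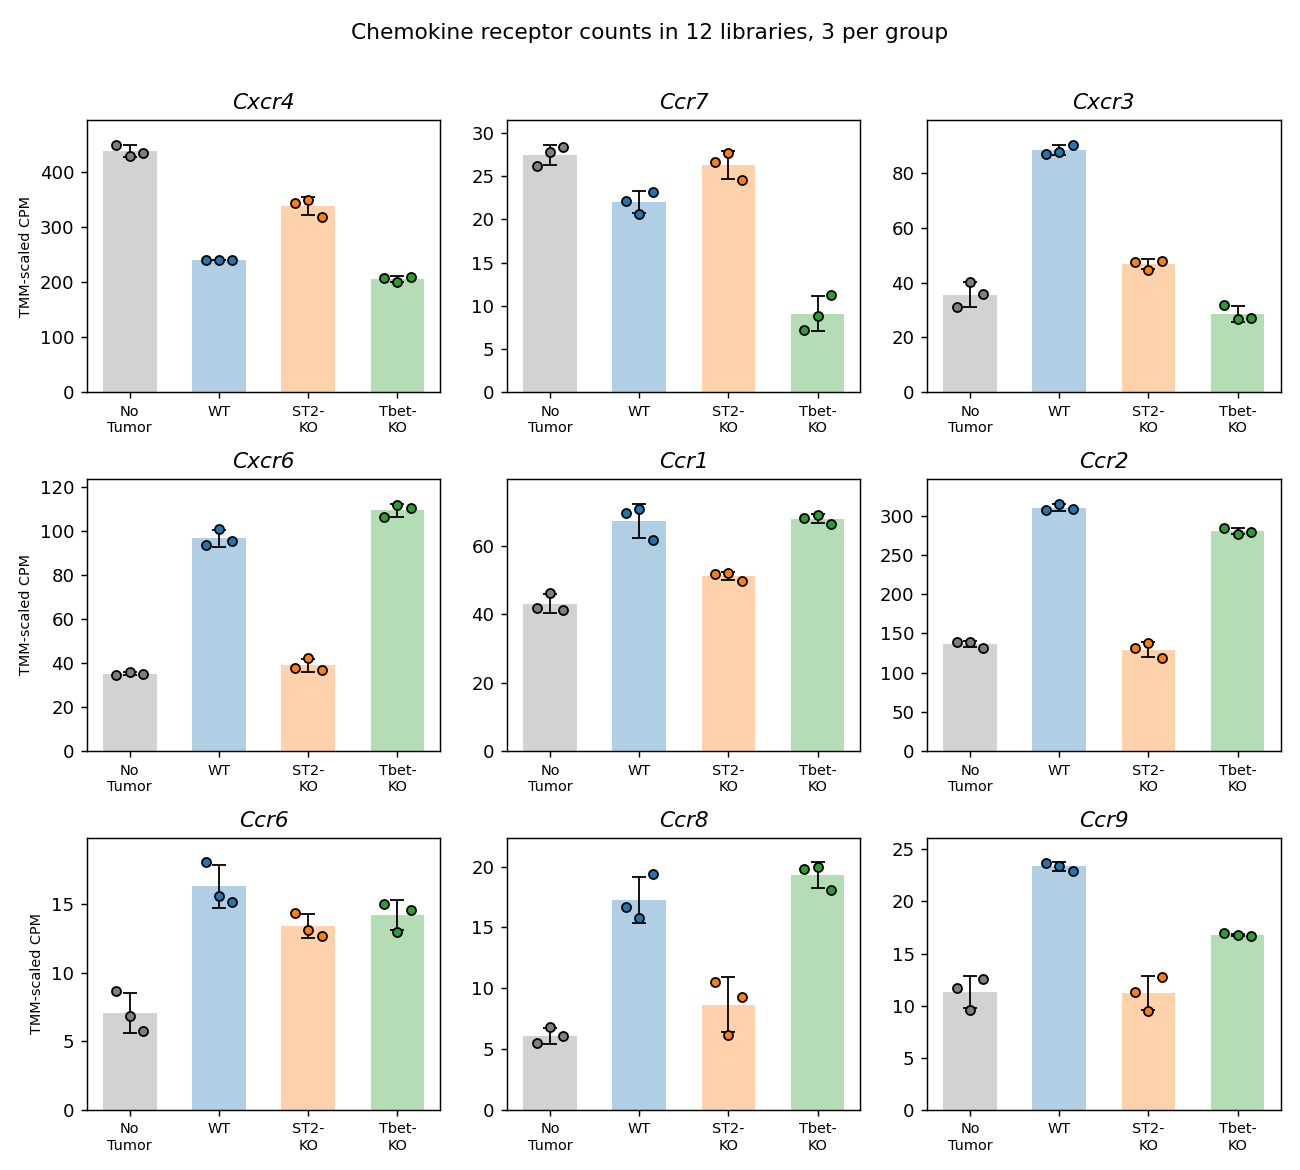
TMM-scaled CPM (y axes, linear from 0) of the 9 receptors in the 4 groups (x axes). Points are single libraries, bars the mean and lines the SD of 3 libraries. Cxcr4 was highest in No Tumor (429 to 450 CPM), Cxcr3 was highest in WT Treg (86.9 to 90.3 CPM, a rise over No Tumor not found relative to T cell genes) and Ccr7 lowest in Tbet-KO (7.19 to 11.2 CPM).

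Cxcr3, the receptor of the interferon-induced ligands CXCL9 and CXCL10 and a known target of Tbet in T cells, was the one receptor for which WT Treg libraries stood above all others while Tbet-KO libraries stood lowest on average. Its levels were 31.0, 40.1 and 35.7 CPM in No Tumor, 86.9, 87.7 and 90.3 in WT Treg, 47.4, 44.5 and 48 in ST2-KO and 32.0, 26.8 and 27.1 in Tbet-KO. Tbet-KO and No Tumor libraries overlapped, and no other pair of groups did. Cxcr3 was 2.47 times higher in WT Treg than in No Tumor (log2 fold change 1.31, SE 0.08, edgeR adjusted p = 1.99e-26). In ST2-KO libraries it was at 52.8% of WT Treg (log2 fold change -0.92, edgeR adjusted p = 4.28e-18) and in Tbet-KO libraries at 32.4% (log2 fold change -1.62, SE 0.08, edgeR adjusted p = 2.53e-31). Tbx21 itself was at 12.2, 17.5 and 16.6 CPM in No Tumor, 41.7, 36.2 and 38.1 in WT Treg, 18.0, 18.6 and 23.6 in ST2-KO and 16.1, 14.0 and 13.8 in Tbet-KO, which gives the 4 means the same order as those of Cxcr3. The last step of that order, from No Tumor to Tbet-KO, did not pass for Tbx21 (edgeR adjusted p = 0.594). Per 1000 counts of the 12 T cell genes, Cxcr3 averaged 56.4 in No Tumor, 54.6 in WT Treg, 55.9 in ST2-KO and 16.2 in Tbet-KO. Tbx21 averaged 24.4, 23.9, 24.0 and 8.30 in the same order. Whether Cxcr3 depended on Tbx21 in these libraries was not tested.

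Cxcr6, the receptor of CXCL16 on effector and tissue T cells, separated the groups into a high and a low pair. WT Treg libraries held 93.5, 101 and 95.4 CPM and Tbet-KO libraries 106, 112 and 110 CPM, against 34.6, 36.0 and 34.8 in No Tumor and 37.6, 42.2 and 36.8 in ST2-KO. Every library of the first pair was above every library of the second. The T cell sum had the same group order, with 615 to 649 CPM in No Tumor and 1741 to 1779 CPM in Tbet-KO. The means of Ccr1 and Ccr8 had this order too, although their differences between Tbet-KO and WT Treg did not pass. Per 1000 counts of the 12 T cell genes, Cxcr6 averaged 55.6 in No Tumor, 59.8 in WT Treg, 46.6 in ST2-KO and 62.0 in Tbet-KO. Cxcr6 was 2.75 times higher in WT Treg than in No Tumor (log2 fold change 1.46, SE 0.07, edgeR adjusted p = 4.72e-34) and at 40.3% of WT Treg in ST2-KO (log2 fold change -1.31, edgeR adjusted p = 1.33e-30). ST2-KO libraries lay just above those of No Tumor, a difference that did not pass (log2 fold change 0.15, 95% interval 0.00 to 0.29, edgeR adjusted p = 0.12). The small difference of Tbet-KO above WT Treg (log2 fold change 0.18, edgeR adjusted p = 0.0107) was lost without WT Treg replicate 1 or Tbet-KO replicate 2. Fyco1, in which Cxcr6 is nested, rose by much less from No Tumor to WT Treg (72.6 to 85.9 CPM, log2 fold change 0.24, edgeR adjusted p = 0.000259).

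The inflammatory receptors Ccr2 and Ccr1 were also highest in the WT Treg and Tbet-KO libraries. Ccr2, the receptor of CCL2 that takes monocytes and effector T cells out of marrow and into inflamed tissue, was at 139, 139 and 132 CPM in No Tumor, 307, 316 and 308 in WT Treg, 131, 138 and 119 in ST2-KO and 285, 277 and 280 in Tbet-KO. All WT Treg and Tbet-KO libraries lay above all others, and No Tumor and ST2-KO overlapped. Ccr2 was 2.27 times higher in WT Treg than in No Tumor (log2 fold change 1.19, SE 0.04, edgeR adjusted p = 8.38e-43), at 41.6% of WT Treg in ST2-KO (log2 fold change -1.27, edgeR adjusted p = 8.25e-44) and at 90.4% in Tbet-KO (log2 fold change -0.15, edgeR adjusted p = 0.00102). Ccr1, a receptor of CCL3 and CCL5 best known from neutrophils and monocytes, was at 41.9, 46.1 and 41.1 CPM in No Tumor, 69.5, 70.9 and 61.6 in WT Treg, 51.7, 52.0 and 49.7 in ST2-KO and 68.0, 69.1 and 66.4 in Tbet-KO. It rose by 0.64 from No Tumor to WT Treg on the log2 scale (edgeR adjusted p = 4.46e-13) and was lower by 0.40 in ST2-KO than in WT Treg (log2 fold change -0.40, edgeR adjusted p = 1.5e-06). Between Tbet-KO and WT Treg the Ccr1 difference was 0.01 (95% interval -0.12 to 0.14). The summed monocyte and macrophage genes were also higher in WT Treg (3640 to 3741 CPM) than in No Tumor (2500 to 2524) and ST2-KO (2824 to 2918). The granulocyte sum was 19052 to 19358 CPM in WT Treg, 15407 to 15582 in Tbet-KO, 14278 to 14552 in No Tumor and 12246 to 12823 in ST2-KO. That is the group order of Ccr2 but not of Ccr1. The part of these cells in Ccr1 and Ccr2 was not tested.

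Ccr6, Ccr8 and Ccr9 are receptors of barrier and tissue homing. Ccr8, the receptor of CCL1 and a marker of tissue and tumor Treg cells, was at 5.46, 6.78 and 6.05 CPM in No Tumor, 16.7, 15.8 and 19.4 in WT Treg, 10.5, 6.13 and 9.25 in ST2-KO and 19.8, 20 and 18.1 in Tbet-KO. It rose 2.82 times from No Tumor to WT Treg (log2 fold change 1.49, SE 0.16, edgeR adjusted p = 9.61e-14) and was at 49.9% of WT Treg in ST2-KO (log2 fold change -0.998, SE 0.15, edgeR adjusted p = 5.51e-08). WT Treg and Tbet-KO overlapped, and their difference did not pass (log2 fold change 0.16, 95% interval -0.12 to 0.44). ST2-KO exceeded No Tumor (log2 fold change 0.50, edgeR adjusted p = 0.0179) although 1 ST2-KO library lay within the No Tumor range, and the call was lost without No Tumor replicate 1, ST2-KO replicate 1 or ST2-KO replicate 3. Ccr9, the receptor of CCL25 in thymus and small intestine, was at 11.7, 9.57 and 12.6 CPM in No Tumor, 23.7, 23.4 and 22.9 in WT Treg, 11.3, 9.50 and 12.8 in ST2-KO and 16.9, 16.8 and 16.7 in Tbet-KO. It differed between WT Treg and ST2-KO by -1.06 (edgeR adjusted p = 1.29e-10) and between WT Treg and Tbet-KO by -0.48 (edgeR adjusted p = 0.00145), while ST2-KO and No Tumor overlapped. Ccr9 is also made by plasmacytoid dendritic cells, whose 9 listed genes summed to 1088 to 1134 CPM in No Tumor, 632 to 648 in WT Treg, 955 to 1017 in ST2-KO and 579 to 593 in Tbet-KO libraries, and their part in Ccr9 was not tested. Ccr6, the receptor of CCL20, was at 8.67, 6.84 and 5.79 CPM in No Tumor, 18.1, 15.6 and 15.2 in WT Treg, 14.4, 13.1 and 12.7 in ST2-KO and 15.1, 13 and 14.6 in Tbet-KO. It rose from No Tumor to WT Treg (log2 fold change 1.21, SE 0.15, edgeR adjusted p = 7.73e-11), and no difference among the leukemic groups passed, with -0.29 (95% interval -0.57 to -0.00) for ST2-KO and -0.20 (-0.48 to 0.08) for Tbet-KO against WT Treg.

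Counted together, 7 of the 9 receptors were higher and 2 lower in WT Treg than in No Tumor libraries after TMM scaling, where 29% and 29.4% of all genes tested were called higher and lower. The ranges of all 9 were apart, against 32.6% of genes apart upwards and 33.1% downwards. With a log2 fold change beyond 1 as well, the rule of the study, 6 were higher and 0 lower, against 8.85% and 4.96% of genes. In ST2-KO against WT Treg 1 was higher and 6 lower (23.1% and 22.8%), and beyond a log2 fold change of 1 these were 0 and 3 (2.66% and 2.42%), the lower ones being Ccr2, Ccr9 and Cxcr6. All 9 were apart (25% and 25.9% of genes upwards and downwards). In Tbet-KO against WT Treg 1 was higher and 5 lower (18.1% and 20.6%), of which 0 and 2, Ccr7 and Cxcr3, passed the second rule (2.09% and 5.24%), and 7 of 9 were apart (25.3% and 26.1%). The median log2 fold change of the 9 was 1.19, -0.92 and -0.20 in these comparisons, and that of all genes 0.00, -0.00 and 0.01. Comparisons that share the WT Treg libraries are not independent of each other, so the rise in WT Treg and the lower level in ST2-KO partly rest on the same 3 libraries.

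The knockout groups were also compared with each other and with No Tumor. Tbet-KO libraries had 5 receptors higher and 3 lower than ST2-KO (26.4% and 27.4%), with Cxcr6 (log2 fold change 1.49), Ccr8 (1.16) and Ccr2 (1.12) higher and Ccr7 (-1.54) lower beyond 1, where 5.17% and 7.28% of genes were, and 8 of 9 were apart (28.4% and 27.9%). Against No Tumor, ST2-KO libraries had 4 receptors higher and 1 lower (15% and 17%), with 0 and 0 beyond 1 (3.79% and 0.951%) and 5 apart (17.5% and 21.2%). Ccr6 had the largest of these differences (log2 fold change 0.92, edgeR adjusted p = 1.25e-06), and Ccr2, Ccr7, Ccr9 and Cxcr6 were not called. Tbet-KO libraries had 6 receptors higher and 3 lower than No Tumor (31.9% and 32.3%), with 4 and 2 beyond 1 (10.8% and 9.56%) and 8 apart (34.2% and 34.3%). The 4 were Ccr8 (1.66), Cxcr6 (1.64), Ccr2 (1.04) and Ccr6 (1.004), and the 2 were Ccr7 (-1.60) and Cxcr4 (-1.09).

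Because the T cell gene sum differed between groups, the receptors were also set against it, as counts per 1000 counts of the 12 T cell genes. On this scale 0 of the 9 receptors were higher in WT Treg than in No Tumor and 5 were lower, where the median of all genes shifted by -1.35 and 1.97% and 86.1% of all genes were called higher and lower. In ST2-KO against WT Treg 4 were higher and 2 lower, where the shift was 0.951 and the shares of all genes were 84.4% and 0.639%. In Tbet-KO against WT Treg, with a shift of only -0.122, 0 were higher and 5 lower (8.92% and 31.8%). The counts were 1 and 6 in Tbet-KO against ST2-KO (1.76% and 85.5%), 1 and 5 in ST2-KO against No Tumor (4.64% and 63.5%) and 1 and 7 in Tbet-KO against No Tumor (3% and 87%). Most genes thus moved 1 way in all of these but Tbet-KO against WT Treg, so that a call in that direction is no result about a receptor. Cxcr4 went from 693 ± 20.5 in No Tumor to 149 ± 1.49 in WT Treg, 406 ± 21.9 in ST2-KO and 117 ± 1.57 in Tbet-KO (SD, n = 3). The log2 fold change from No Tumor to WT Treg was -2.22 (edgeR adjusted p = 7.92e-89) and that from WT Treg to ST2-KO 1.45 (edgeR adjusted p = 1.49e-66). Ccr7 was at 13.6 ± 0.700 in WT Treg against 43.5 ± 2.02 in No Tumor (SD, n = 3). For Cxcr4 and Ccr7, already lower in WT Treg after TMM scaling, the shift of -1.35 sets this direction, so that it is no second measurement of their fall. Cxcr3 stood at 56.4 ± 8.28 in No Tumor, 54.6 ± 1.42 in WT Treg, 55.9 ± 2.86 in ST2-KO and 16.2 ± 1.55 in Tbet-KO (SD, n = 3), with no call among the first 3. Its lower level in Tbet-KO than in WT Treg was thus found under both scalings (log2 fold change -1.75, edgeR adjusted p = 2.48e-41), as was that of Ccr7 (-1.41, edgeR adjusted p = 2.29e-19). A shift of only -0.122 could hardly change differences of this size, so the second scaling is no second measurement of them. The rise from No Tumor to WT Treg was not found under both scalings: Ccr1 (-0.71, edgeR adjusted p = 1.12e-15), Ccr2 (-0.17, 0.000699) and Ccr9 (-0.30, 0.0346) turned to lower calls, and Ccr6, Ccr8, Cxcr3 and Cxcr6 gave no call. Between ST2-KO and WT Treg, Ccr2 (-0.31, edgeR adjusted p = 4.37e-09) and Cxcr6 (-0.36, edgeR adjusted p = 5.61e-06) were lower under both scalings, against the shift of all genes, Ccr8, Ccr9 and Cxcr3 gave no call, and Ccr1 (0.56), Ccr6 (0.67) and Ccr7 (1.22) became higher calls. The T cell genes are themselves part of what the groups may differ in, and which scaling fits the Treg cells was not tested. The 12 genes of a Treg list, Foxp3 among them, moved by other amounts. Their median log2 fold change was 1.17 in WT Treg against No Tumor, where that of the T cell genes was 1.43. It was -0.56 against -0.97 in ST2-KO against WT Treg, and -0.48 against 0.22 in Tbet-KO against WT Treg. No scaling to the Treg genes was run.

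**Figure D3:**
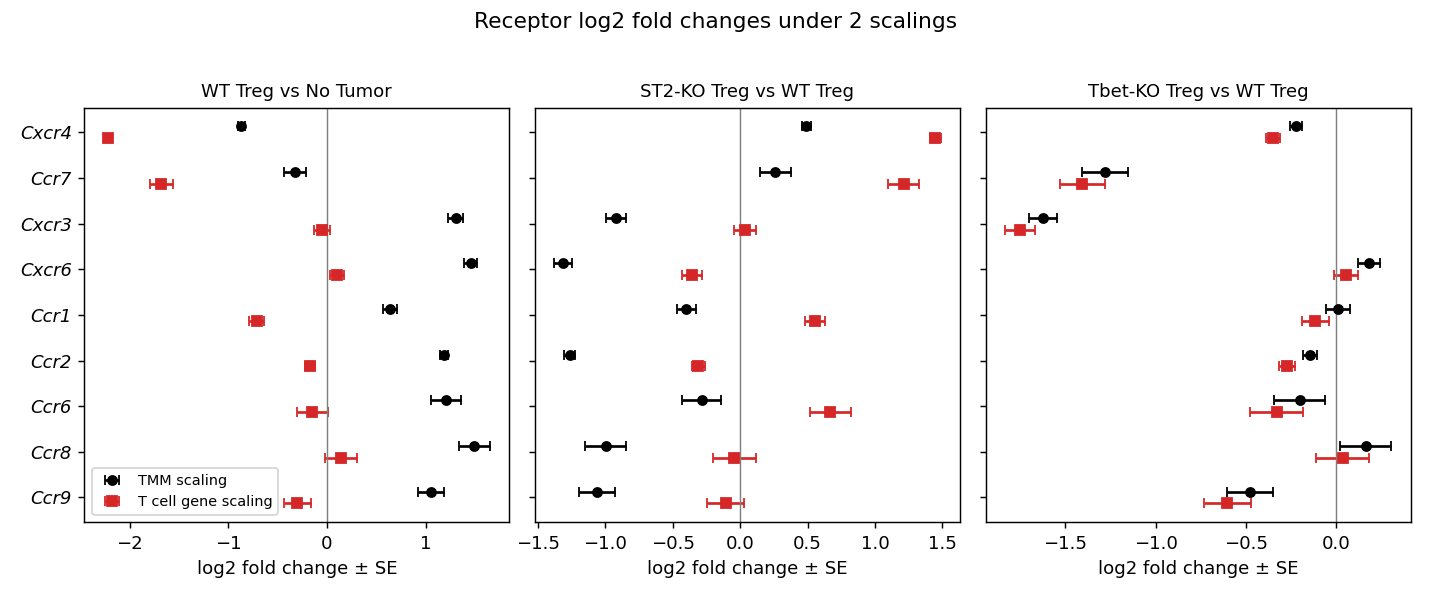
Log2 fold changes with SE (x axes) of the 9 receptors (y axis) in 3 comparisons of 3 against 3 libraries, after TMM scaling (black circles) and after scaling to 12 T cell genes (red squares). Between WT Treg and No Tumor, where the second scaling moves the median of all genes by -1.35, Ccr2 lies at 1.19 and at -0.17. Between Tbet-KO and WT Treg, where that median moves by only -0.122, Cxcr3 lies at -1.62 and -1.75.

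**Figure D4:**
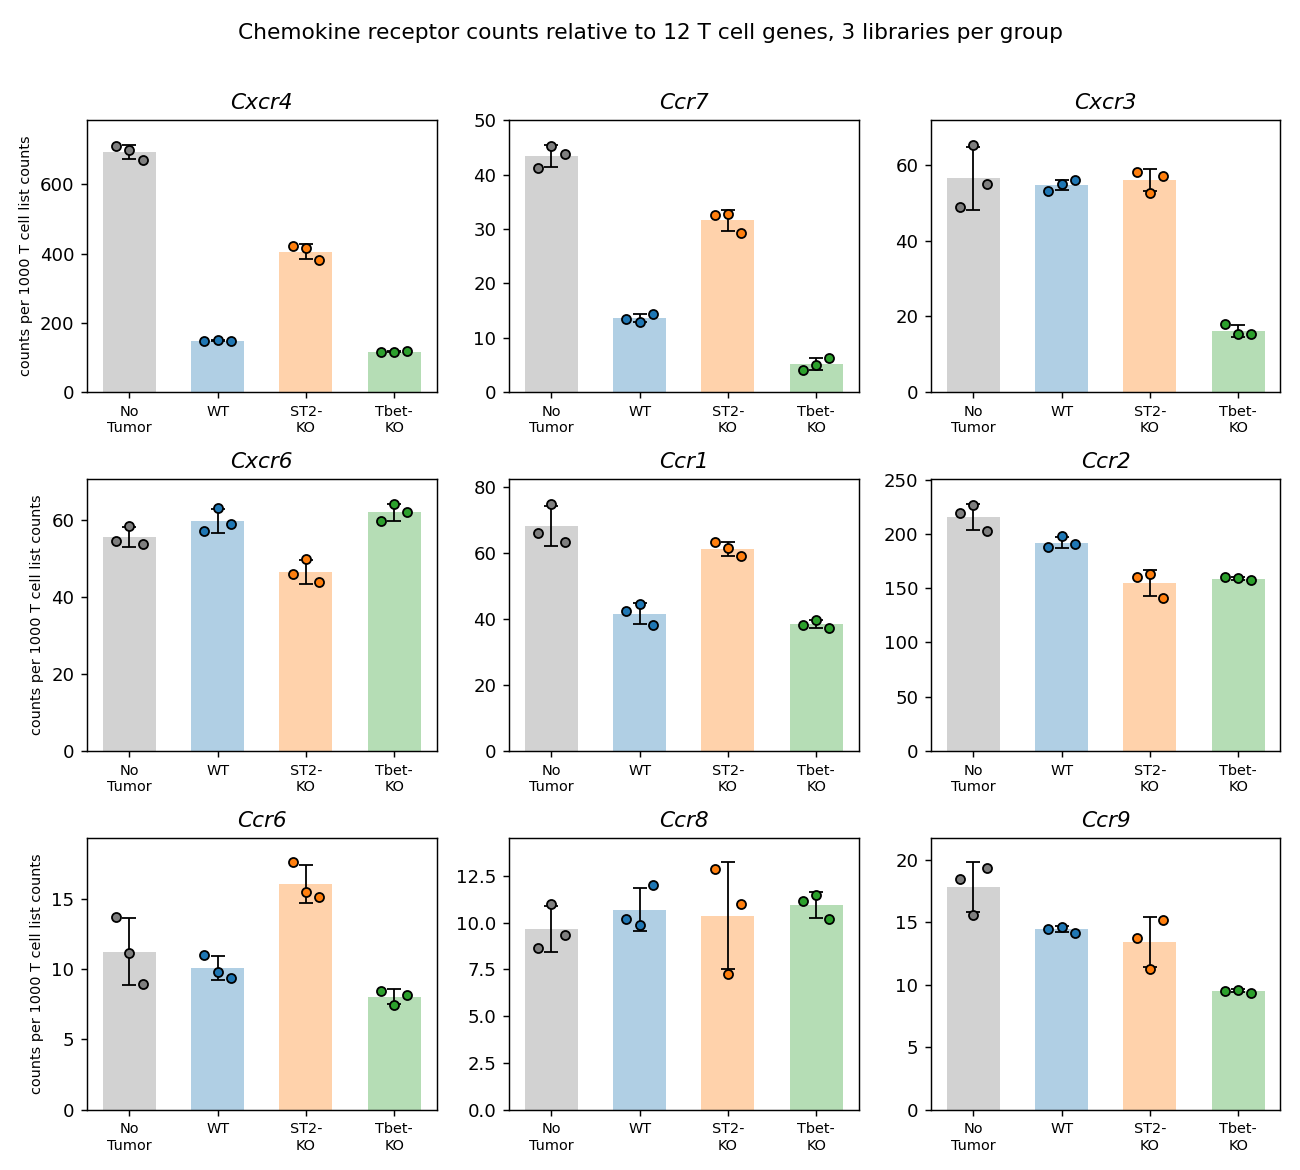
Receptor counts per 1000 counts of 12 T cell genes (y axes, linear from 0) in the 4 groups (x axes). Points are single libraries, bars the mean and lines the SD of 3 libraries. Cxcr4 averages 693 in No Tumor and 117 in Tbet-KO, and Cxcr3 stands at 16.2 in Tbet-KO against 54.6 in WT Treg.

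Over the 12 libraries the levels of most receptors followed each other, which describes 4 group levels and not 12 independent points. On log2 CPM, Cxcr6 and Ccr2 had a Pearson correlation of 0.976, Cxcr6 and Cxcr4 of -0.956, and Cxcr3 and Cxcr6 of only 0.178. Among 9007 genes with a mean of at least 10 CPM, those most like each receptor were Il17ra (0.998) and Ncapd2 (0.996) for Cxcr4, Hdac9 (0.983) and the B cell follicle receptor Cxcr5 (0.977) for Ccr7, and Tlr7 (0.972) and Tbx21 (0.971) for Cxcr3. They were Mbnl1 and Gapdh (both 0.996) for Cxcr6, Sri (0.991) and Ms4a4b (0.990) for Ccr2, and Gnai3 (0.987) and Gpr174 (0.985) for Ccr1. For the tissue receptors they were Acp5 (0.965) and Serpine2 (0.958) for Ccr6, Lamtor3 and Sh3kbp1 (both 0.981) for Ccr8, and Tmem154 (0.970) and Fcgr4 (0.968) for Ccr9. All values are over n = 12 libraries that share their group, and no p is given.

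Ligands of the 9 receptors were measured in the same libraries. Of the 21 listed, 17 were in the table and 16 were tested, with 13 higher and 1 lower in WT Treg than in No Tumor, 1 higher and 11 lower in ST2-KO than in WT Treg, and 1 higher and 6 lower in Tbet-KO than in WT Treg (median log2 fold changes 1.36, -0.61 and -0.52). The shares of all genes called higher and lower were 29% and 29.4%, 23.1% and 22.8%, and 18.1% and 20.6% in the same order. Cxcl9, the CXCR3 ligand induced by interferon gamma, averaged 12.2 CPM in No Tumor, 58.8 in WT Treg, 14.7 in ST2-KO and 15.5 in Tbet-KO. Its log2 fold change from No Tumor to WT Treg was 2.26 (edgeR adjusted p = 4.3e-31). After TMM scaling WT Treg libraries were thus high for both ligand and receptor. Relative to T cell genes the receptor Cxcr3 was not higher in WT Treg than in No Tumor (log2 fold change -0.050, edgeR adjusted p = 0.565). Cxcl12, the CXCR4 ligand made by marrow stroma, averaged 77.8, 106, 85.3 and 24.1 CPM in the same order, with a log2 fold change of -2.13 from WT Treg to Tbet-KO (edgeR adjusted p = 1.8e-42). Ccl1, the CCR8 ligand, rose from 1.61 to 7.43 CPM between No Tumor and WT Treg (log2 fold change 2.19, edgeR adjusted p = 7.81e-13), while its differences from WT Treg in ST2-KO (6.13 CPM) and Tbet-KO (9.32 CPM) did not pass. Ccl5 (7.38 to 24.2 CPM) and Ccl3 (6.28 to 18.4 CPM), ligands of CCR1, and Ccl8 (2.39 to 8.96 CPM), a ligand of CCR8 in the mouse, were called higher in WT Treg than in No Tumor as well, and all of them were called lower in ST2-KO than in WT Treg.

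Of 14 other chemokine receptors, 11 were tested. In WT Treg against No Tumor 5 were higher and 1 lower, in ST2-KO against WT Treg 0 and 6, and in Tbet-KO against WT Treg 1 and 6, beside 29% and 29.4%, 23.1% and 22.8%, and 18.1% and 20.6% of all genes. Ccr4, a skin-homing receptor of Treg and Th2 cells, averaged 15.6, 40.6, 23.7 and 43.9 CPM in No Tumor, WT Treg, ST2-KO and Tbet-KO, with the order of Ccr8. Ccr3, the eotaxin receptor, averaged 18.9, 70.1, 40.9 and 40.9 CPM. Cxcr2, the neutrophil receptor, averaged 113, 170, 108 and 107 CPM. Cxcr5 averaged 16.1, 12.9, 13.4 and 4.86 CPM and was called lower in Tbet-KO than in WT Treg (log2 fold change -1.40, edgeR adjusted p = 1.42e-11), as Ccr7 was. Cx3cr1, the fractalkine receptor, averaged 8.03, 14.2, 9.75 and 17.0 CPM, and Ccrl2, a non-signalling chemerin receptor, 6.70, 9.68, 5.45 and 4.50 CPM.

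Among 24 signalling genes 16 were higher and 5 lower in WT Treg than in No Tumor, 4 higher and 16 lower in ST2-KO than in WT Treg, and 5 higher and 6 lower in Tbet-KO than in WT Treg, with medians of 0.27, -0.21 and 0.00. Against the same shares of all genes (29% and 29.4%, 23.1% and 22.8%, 18.1% and 20.6%), the count in Tbet-KO was near the background. Changes in the Gi subunits and in Dock2 were small. Rgs1, which ends Gi signals and is high in activated lymphocytes, averaged 19.1 CPM in No Tumor, 52.4 in WT Treg, 28.9 in ST2-KO and 64.0 in Tbet-KO (log2 fold change from No Tumor to WT Treg 1.45, edgeR adjusted p = 1.2e-26). Rgs2 averaged 253, 134, 248 and 89.9 CPM in the same order, opposite to Rgs1. Adrbk1, the kinase now named Grk2 that desensitizes chemokine receptors, averaged 798, 495, 653 and 445 CPM, the group order of Cxcr4, while Adrbk2 (Grk3) averaged 23.5, 48.5, 37.1 and 53.0 CPM. Rgs3 (38.9 to 81.2 CPM) and Rgs10 (13.9 to 28.3 CPM) were called higher in WT Treg than in No Tumor.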

How the data were processed

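Treg cells were sorted from marrow and total RNA was sequenced after rRNA removal (KAPA Hyperprep, QIAseq FastSelect). The authors aligned reads with STAR 2.5 to mm10 and counted them on UCSC refGene with featureCounts 1.5.1; quality control used FastQC 0.11.5 and NGSUtils 0.5.9, per the labels and the reporting summary, and the strand setting is not given in the sources used here. The deposited raw counts are whole numbers, and the deposited log2 FPKM values equal log2 CPM after TMM (prior count 2) less a constant per gene, with a largest deviation of 5.71e-14. Both tables were deposited by the authors with 12 columns, of which 0 could not be mapped to a sample.

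The test was that of edgeR 4.0.16 (R 4.3.3): filterByExpr over the 4 groups, TMM, 1 quasi-likelihood fit of all 12 libraries, 6 pairwise tests and Benjamini-Hochberg adjustment over 13782 genes in each. Genes with an adjusted p under 0.05 were called. The study's rule adds a log2 fold change beyond 1. The common coefficient of variation was 5.53%. SE is the log2 fold change divided by the square root of F. Depth was 13272943 to 18042521 counts. No permutation test is given, since 3 against 3 libraries cannot give a p below 0.1. Alternatives were RLE factors, DESeq2 1.42.0, limma 3.58.1 on log2 FPKM, 2 other filters, only the groups compared, a replicate block, scaling to T cell genes, libraries without Rn45s, a threshold of 0.01 and leaving out each library.

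The receptors, the lists of ligands, other receptors, signalling genes and cell markers, and the rule for named genes were chosen with earlier results of these data known. Named were all 9 receptors, the 2 genes most correlated with each (mean of at least 10 CPM), Il1rl1, Tbx21, up to 6 called genes a list with a mean of at least 5 CPM, by size of fold change, and up to 3 markers a list. Fyco1 was added for its overlap with Cxcr6. Locations are from GENCODE M21 and promoter windows from RefSeq. The motifs were chosen after the receptor values were seen.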

Additional observations from a re-analysis of the deposited data

How the results depend on the processing

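Of 54 receptor differences (9 receptors in 6 comparisons), all kept direction and call with RLE factors, with DESeq2, without a filter on low counts, with at least 1 CPM in 3 libraries and with the replicate number as a block. Same-numbered libraries did not deviate together (r -0.02 to 0.021 over 18 pairs), so the numbers do not pair the libraries, and the replicate block left 7 receptors higher and 2 lower in WT Treg against No Tumor. Scaling to T cell genes changed most: 22 of 54 differences kept direction and call, 9 lost and 4 gained a call and 19 reversed, and the median of all genes shifted by -1.35, 0.951, -0.122, -1.08, -0.417 and -1.48 in WT Treg vs No Tumor, ST2-KO vs WT Treg, Tbet-KO vs WT Treg, Tbet-KO vs ST2-KO, ST2-KO vs No Tumor and Tbet-KO vs No Tumor. The counts of higher and lower receptors became 0 and 5, 4 and 2, 0 and 5, 1 and 6, 1 and 5, and 1 and 7 in the same order. Reversed log2 fold changes on this scale were, for WT Treg vs No Tumor, Ccr1 -0.71, Ccr2 -0.17, Ccr6 -0.15, Ccr9 -0.30 and Cxcr3 -0.050; for ST2-KO vs WT Treg, Ccr1 0.56, Ccr6 0.67 and Cxcr3 0.034; for Tbet-KO vs WT Treg, Ccr1 -0.12; for Tbet-KO vs ST2-KO, Ccr1 -0.67, Ccr6 -0.999 and Ccr9 -0.50; for ST2-KO vs No Tumor, Ccr1 -0.16, Cxcr3 -0.016 and Cxcr6 -0.26; and for Tbet-KO vs No Tumor, Ccr1 -0.83, Ccr2 -0.44, Ccr6 -0.48 and Ccr9 -0.90. The 4 gained calls were Ccr7 1.22 in ST2-KO vs WT Treg and Ccr2 -0.48, Ccr7 -0.46 and Ccr9 -0.41 in ST2-KO vs No Tumor. By its construction this scale sets the summed T cell counts of all libraries equal. With only the 2 groups compared, 2 receptors were higher in ST2-KO than in WT Treg, Ccr7 being the second (0.26), and Ccr9 reversed to 0.016 in ST2-KO vs No Tumor, as it did without Rn45s (0.013); neither Ccr9 value was called. Ccr8 lost its call in ST2-KO vs No Tumor with limma (0.46), with only the 2 groups compared (0.52) and at a threshold of 0.01 (0.50). At a threshold of 0.01, 1 receptor was lower in WT Treg vs No Tumor and 0 were higher in Tbet-KO vs WT Treg. Leaving out 1 library at a time gave 3 to 4 receptors higher and 1 to 2 lower in ST2-KO vs No Tumor (2 lower without ST2-KO replicate 2), 1 to 2 higher in ST2-KO vs WT Treg (2 without ST2-KO replicate 3, Tbet-KO replicate 1 or Tbet-KO replicate 3), 0 to 1 higher in Tbet-KO vs WT Treg (0 without WT Treg replicate 1 or Tbet-KO replicate 2) and 1 to 2 lower in WT Treg vs No Tumor (1 without WT Treg replicate 2). It reversed only uncalled values: Ccr9 in ST2-KO vs No Tumor (range -0.12 to 0.092, above 0 without No Tumor replicate 1 or 3 or ST2-KO replicate 2) and Ccr1 in Tbet-KO vs WT Treg (range -0.048 to 0.047, below 0 without WT Treg replicate 3 or Tbet-KO replicate 2). Apart from the T cell scale, the cause of these changes was not tested. Ccr6 and Ccr8, with 75 to 339 counts a library, had the widest errors.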
